A study of Mus musculus with 8 samples.

Results

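The genes described here are 9 neuronal calcium sensors and buffers: Hpcal4, Hpca, Hpcal1, Ncald, Vsnl1, Calb1, Calb2, Cpne6 and Nrgn. They were chosen by symbol, and all 9 were found among the 32285 features counted. They were picked after earlier results of these sections had been seen, so the differences between groups below describe the 9 genes and are no evidence about them as a set. Visium spatial gene expression, which captures polyadenylated RNA on an array of barcoded spots 55 μm wide and 100 μm apart, was measured on 8 coronal sections of 10 μm from fresh frozen brains, 2 sections in each of 4 groups. The study asked where senescent cells lie in the brain after paclitaxel (PTX), a microtubule-stabilising chemotherapy drug, and after treatments that remove such cells. Control mice received vehicle (DMSO and saline). PTX mice received PTX at 5 mg/kg per day by intraperitoneal injection in 2 cycles of 5 days with a 7-day interval, and then vehicle. PTX+GCV mice received the same PTX and then ganciclovir (GCV) at 25 mg/kg per day, and PTX+ABT263 mice the same PTX and then ABT263 (navitoclax, an inhibitor of BCL-2 family proteins) at 1.5 mg/kg per day, each for 5 days in 2 cycles with a 2-week interval. Brains were taken 6 months after PTX, at an age of 9-10 months. Every group, Control included, carries the p16-3MR transgene, in which the p16 promoter drives a reporter cassette with a viral thymidine kinase, so that GCV kills cells that express it. None of the 8 sections comes from a mouse given GCV or ABT263 without PTX. The labels call all mice male, give all sections the same batch and do not say whether the 2 sections of a group come from separate mice, so the p-values below measure the spread between sections, which may be technical.

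Neurons turn calcium entry into biochemical signals through proteins that bind the ion directly. Hippocalcin (Hpca) and the related visinin-like proteins are EF-hand sensors that expose a fatty acid anchor when calcium binds and then move to membranes, and Hpcal1, Hpcal4, Ncald (neurocalcin delta) and Vsnl1 (visinin-like protein) belong to that family. Calbindin (Calb1) and calretinin (Calb2) are EF-hand buffers used to mark classes of neurons, copine 6 (Cpne6) binds membranes through calcium-dependent C2 domains, and neurogranin (Nrgn) binds calmodulin in dendritic spines when calcium is low.

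The 9 genes lie on 6 chromosomes of the mouse genome GRCm38.p6 (mm10). Hpcal4 spans chr4:123183504-123194699 on the plus strand, Hpca chr4:129111570-129125919 on the minus strand, Hpcal1 chr12:17690750-17791944 on the plus strand, Ncald chr15:37366175-37792519 on the minus strand and Vsnl1 chr12:11325257-11436578 on the minus strand. Calb1 spans chr4:15881264-15906709 on the plus strand, Calb2 chr8:110142526-110168212 on the minus strand, Cpne6 chr14:55510445-55517435 on the plus strand and Nrgn chr9:37544493-37552745 on the minus strand. RefSeq promoter entries of that build were matched by symbol for 5 of the 9 genes. Ncald, Calb1, Calb2 and Cpne6 had no entry in the table used. The sequence upstream of the annotated gene is shown for Hpcal4 and Hpcal1, since these members had the lowest log2 fold change of PTX against Control in the whole section. Capitals mark the GC box GGGCGG, searched on both strands.
Hpcal4 (chr4:123183254-123183503, plus strand): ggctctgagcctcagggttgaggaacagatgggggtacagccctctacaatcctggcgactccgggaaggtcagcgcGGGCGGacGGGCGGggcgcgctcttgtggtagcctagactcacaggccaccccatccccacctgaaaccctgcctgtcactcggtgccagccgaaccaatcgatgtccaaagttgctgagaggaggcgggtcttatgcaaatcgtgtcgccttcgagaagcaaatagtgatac
Hpcal1 (chr12:17690559-17690749, plus strand): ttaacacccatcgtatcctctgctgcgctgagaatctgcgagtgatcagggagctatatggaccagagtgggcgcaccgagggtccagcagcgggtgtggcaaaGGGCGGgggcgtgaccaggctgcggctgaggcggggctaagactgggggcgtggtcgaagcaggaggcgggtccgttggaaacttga
The Hpcal4 stretch of 250 bases held 2 GC boxes and was 60.4% G and C, and the Hpcal1 stretch of 191 bases held 1 and was 63.4% G and C. The other 59 bases of the Hpcal1 window lie inside the annotated gene and are not shown. The GC box was present in 32.7% of 32851 promoter windows of 250 bases, whose median G and C content was 52.4%. Neither stretch held the cyclic AMP response element TGACGTCA (1.55% of windows), the shorter TGACG contained in it (17.8%) or the TATA box TATAAA (12.4%). These letter matches describe the windows and identify no binding site.

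The 8 sections held 21328 spots and 273263080 unique molecular identifiers (UMIs, each a captured RNA molecule), 19870666 to 42886400 per section, with Control 1 the shallowest. Levels are given in CPM, which are UMIs per 1000000 UMIs of the same section or area. Both sections of a group correlated across genes at 0.990 to 0.994. Each spot was assigned to 1 of 15 areas by marker genes, none of them a member, and further genes were kept back to check the names. Of 120 values of an area in a section 3 were left out because no check gene was higher inside the area (habenula in Control 1, CA1 in PTX 2 and in PTX+ABT263 1). Nnat, a check gene of the piriform and amygdalar cortex, was higher there in 4 of 8 sections, and Lypd1, the other, in 8 of 8. Both sections labelled PTX+ABT263 held Xist, an RNA made from the inactive X (19.7 and 19.3 CPM), and almost no Y-linked Ddx3y (0.444 and 0), whereas the other 6 held Ddx3y at 31.1 to 35.8. They are therefore called the sections labelled PTX+ABT263, and sex and treatment cannot be told apart in them.

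Each member had its own map over the brain, as the heat map of 15 areas shows. Among the sensors, Hpcal4 was highest in the piriform and amygdalar cortex (median 583 CPM over 8 sections, range 509 to 736) and in layer 6 and subplate of the isocortex (553, range 449 to 896). It was lowest in the reticular thalamus and pallidum (45.8) and in the thalamus (59.1). Hpca peaked in the pyramidal layers of the hippocampus, CA3 (2696, range 2448 to 2948) and CA1 (2340.2 over 6 sections), followed by the dentate gyrus (979) and the striatum (952). It was lowest in the thalamus (52.6) and the habenula (55.7). Hpcal1 was highest in the piriform and amygdalar cortex (249), the hypothalamus (192) and the reticular thalamus and pallidum (135), with CA1 (15.7) and the thalamus (11.1) at the bottom. Ncald was highest in layer 6 and subplate (581), and Vsnl1 was nearly level across the isocortex, at 1152 in the upper layers, 1174 in layer 5 and 1162 in layer 6.

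**Figure D1:**
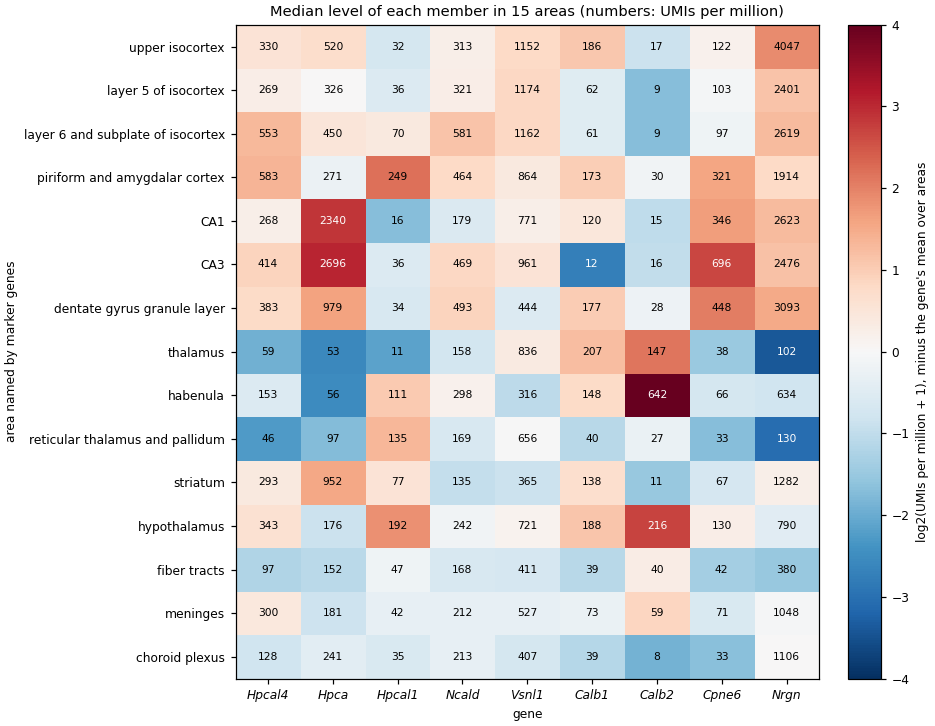
Median level of each of the 9 genes (columns) in 15 areas named by marker genes (rows). Numbers are CPM, medians over 6 to 8 sections, and colours give log2(CPM + 1) minus the gene's mean over areas. Calb2 stands out in the habenula (642) and Hpca in CA3 (2696). The thalamus is the lowest area for Nrgn (102) and Hpca (52.6) and, over all groups but not in Control alone, the highest for Calb1 (207).

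Of the buffers, Calb1 was by the median of all 8 sections highest in the thalamus (207, range 146 to 363), the hypothalamus (188) and the upper isocortex (186). It was lowest in CA3 (12.3), while CA1 stood at 120.4 and the dentate gyrus at 177. Within the isocortex the upper layers stood above layer 5 (62.2) and layer 6 (61.5). In Control alone, Calb1 in the thalamus (146 and 159) lay below the hypothalamus (189 and 186) and the upper isocortex (187 and 185). Calb2 was highest in the habenula (642 over 7 sections, range 473 to 936), then the hypothalamus (216) and the thalamus (147), and was lowest in layer 5 (9.27) and layer 6 (9.23) of the isocortex and in the choroid plexus (7.97). Cpne6 was highest in CA3 (696), the dentate gyrus (448) and CA1 (346). Nrgn was highest in the upper isocortex (4047, range 3618 to 4887) and lowest in the thalamus (102, range 83.7 to 216).

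For the tests below, areas were ordered by the mean of log2(CPM + 1) of each member. That order can differ from the order of medians above. Many of its steps were not separated from the next. In exact two-sided sign-flip permutation tests of differences within sections, 36 of 126 neighbouring pairs had an unadjusted p under 0.05 and 0 passed after Benjamini-Hochberg adjustment over all 126. Pairs and directions came from the same values that were tested. A step seen in all sections therefore describes them and is no separate support for the order. The smallest adjusted p was 0.0615, and the smallest p that sign flips of 8 sections can give is 0.00781. Steps with CA1 (6 sections) or the habenula (7 sections) cannot reach that floor. Over 126 tests an adjusted p under 0.05 needs many steps at the floor, so the 0 does not show that neighbours are alike. The steps at that smallest p, in the same direction in 8 of 8 sections, include piriform and amygdalar cortex over CA3 for Hpcal4, striatum over upper isocortex for Hpca, piriform and amygdalar cortex over hypothalamus for Hpcal1, CA3 over dentate gyrus for Cpne6 and upper isocortex over dentate gyrus for Nrgn. For Hpcal4 layer 6 and the piriform and amygdalar cortex changed places from section to section (exact p = 0.797), and for Vsnl1 the 3 layers of the isocortex did. For Hpca, CA1 lay above CA3 in Control 1 (3267 against 2937) and below it in the other sections used (exact p = 0.188). The CA1 values left out, 4346 in PTX 2 and 3843 in PTX+ABT263 1, lay above CA3 (2885 and 2948). For Hpcal1 the steps from layer 5 of the isocortex through CA3, upper isocortex and choroid plexus to the dentate gyrus had exact p between 0.891 and 0.953.

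Over 117 values of an area in a section, the genes whose pattern was most like a member, among 7126 genes with a mean of at least 20 CPM, were Chrm1 for Nrgn (Pearson r of log2(CPM + 1) 0.95), Gpm6a for Hpcal4 (0.91), Slit1 for Cpne6 (0.91), Ppp3ca for Hpca (0.90), Sult4a1 for Vsnl1 (0.89), Olfm1 for Ncald (0.84), Dbpht2 for Calb1 (0.81), Slc17a6 for Calb2 (0.80) and Alcam for Hpcal1 (0.69). Ppp3ca encodes a catalytic subunit of calcineurin, Slc17a6 the vesicular glutamate transporter of subcortical neurons and Chrm1 a muscarinic receptor. Among the members themselves Hpcal4 and Nrgn were most alike (0.85), then Hpca with Nrgn (0.76) and with Cpne6 (0.75), whereas Hpca and Calb2 ran opposite (-0.58). The 117 values share sections and depth, so these correlations are descriptions.

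Over the whole section, Hpcal4 was lower in PTX than in Control. Control gave 421 and 350.5 CPM, PTX 246 and 271, PTX+GCV 357 and 356, and the sections labelled PTX+ABT263 gave 277 and 291. Both PTX sections lay below every other section, and the PTX+GCV sections lay within the range of Control. The log2 fold change of PTX against Control was -0.62 (SE 0.09, edgeR quasi-likelihood adjusted p = 0.0247 over 16671 genes, n = 2 sections each). Hpcal4 was the 1 member of 9 past an adjusted p of 0.05 there, where 0.126% of all genes passed. Without PTX 1 or without PTX 2 the adjusted p was 0.136 or 0.169, on a change of -0.55 or -0.70, and with the section number as a replicate block it was 0.0646. The PTX sections were deeper than the Control sections, with medians of 15715.5 and 13442 UMIs per spot against 7583 and 12655 in Control, and the part of depth in the result was not tested. The endothelial list of 6 genes summed to 150.4 and 138.6 CPM in Control against 173.6 and 178.2 in PTX, with no gene at 0, and its part was not tested either. A spot can hold several cells, and fewer cells of a type cannot be told apart from less RNA per cell.

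**Figure D2:**
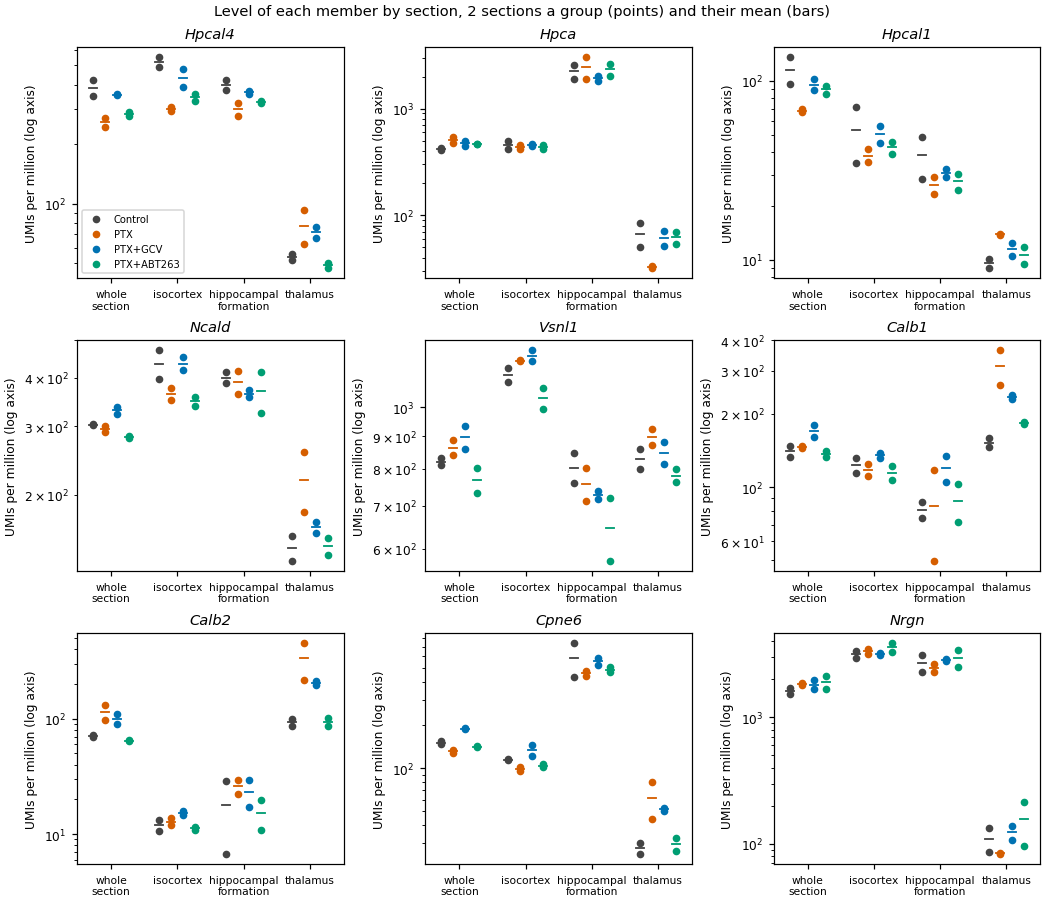
Level of each member in the whole section, the isocortex, the hippocampal formation (CA1, CA3 and dentate gyrus) and the thalamus. Each point is 1 section, bars are means of 2 sections, colours are groups, and the vertical axes are CPM on a log scale. Hpcal4 in the isocortex is at 293 and 308 in PTX against 549 and 491 in Control, and Calb2 in the thalamus at 217 and 449 against 86.5 and 100.1.

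For Hpcal1 Control gave 96.2 and 135, PTX 69.4 and 67.1, PTX+GCV 102 and 88.8, and the sections labelled PTX+ABT263 gave 94.2 and 85.0. The PTX sections were again the lowest of the 8, but Control 1 lay among the senolytic groups, and the log2 fold change of -0.82 (SE 0.14) did not pass (edgeR adjusted p = 0.0630) and was -0.51 without Control 2. Calb2 took 72.5 and 70.1 in Control against 97.1 and 132 in PTX, while PTX+GCV gave 89.9 and 110.3 and the sections labelled PTX+ABT263 gave 64.9 and 63.6. PTX lay above Control without overlap, with a log2 fold change of 0.64 (SE 0.12, edgeR adjusted p = 0.0858) that was 0.39 without PTX 2. Cpne6 went from 154 and 146 to 134 and 128, without overlap, but its change of -0.24 (SE 0.06) did not pass either (edgeR adjusted p = 0.143). Hpca, Ncald, Vsnl1, Calb1 and Nrgn had log2 fold changes between -0.09 and 0.23. Of these, Hpca, Vsnl1 and Nrgn were higher and Ncald lower in PTX without overlap, and Calb1 overlapped. The share of all genes without overlap over the whole section was not computed. At an unadjusted p under 0.05 in edgeR there were 5 members and 13.5% of all genes. The median over the 9 members was 0.00, and that over all genes 0.01.

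Sections differed in how much of each area they held: the thalamus made up 10.9% to 17.5% of UMIs, the upper isocortex 9.89% to 15.9% and the piriform and amygdalar cortex 5.42% to 13.6%. When each section was recomputed at the mean mix of areas of the 8 sections, the log2 ratio of mean Hpcal4 levels between PTX and Control went from -0.58 to -0.51 and that of Hpcal1 from -0.76 to -0.52, in both cases with no overlap between the groups. The ratio of Calb2 went from 0.69 to 0.93, also without overlap. For Hpca it went from 0.28 to 0.12, with overlapping groups. Vsnl1, Calb1 and Cpne6 did not overlap at this mix, and Ncald and Nrgn did. The share of all genes without overlap at this mix was not computed. The recomputed levels include the area values left out above (habenula in Control 1, CA1 in PTX 2 and in PTX+ABT263 1).

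In the isocortex Hpcal4 was also lower in PTX than in Control. Control gave 549 and 491, PTX 293 and 308, PTX+GCV 478 and 389, and the sections labelled PTX+ABT263 gave 329 and 360.0. Control lay above all other sections and PTX below them, with the senolytic groups between. The log2 fold change of PTX against Control was -0.80 (SE 0.11, edgeR adjusted p = 0.00961 over 14195 genes), the 1 call among the 9 members where 0.0282% of all genes passed. Without PTX 1 or without PTX 2 the adjusted p was 0.110 or 0.171, on a change of -0.76 or -0.84. The neuron list of 10 genes summed to 9459 to 9546 in the isocortex of Control and 9315 to 9573 in PTX, with no gene at 0, and the list of 6 astrocyte genes to 2837 to 3692 against 2438 to 2709. The list of 6 genes of GABA neurons summed to 1103 to 1211 in Control and 1317 to 1557 in PTX, and the endothelial list to 120.6 to 129.9 and 156.8 to 159.3. No gene of these lists was at 0, and their part in the result was not tested.

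Layer by layer, Hpcal4 was at 392 and 385 in layer 5 of Control and at 201 in both PTX sections, a log2 ratio of means of -0.95. In the upper layers it was at 479 and 425 against 265 and 273 (-0.75), and in layer 6 and subplate at 896 and 647 against 449 and 514 (-0.68). The PTX sections lay below the Control sections in every layer. Over the 13 areas with 2 sections in both groups, Hpcal4 was lower without overlap in 10, higher in 2 (thalamus and choroid plexus) and overlapping in CA3, in data where 15.6% of all pairs of an area and a gene with a mean of at least 10 CPM were lower and 25.1% higher without overlap. Here and in the counts of areas below, the areas come from the same sections and are not separate observations. The shares are over single pairs and not over genes that differ in many areas. The widest ratio of Hpcal4 outside the isocortex was in the fiber tracts, with 175 and 96.1 in Control and 65.2 and 58.7 in PTX.

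**Figure D3:**
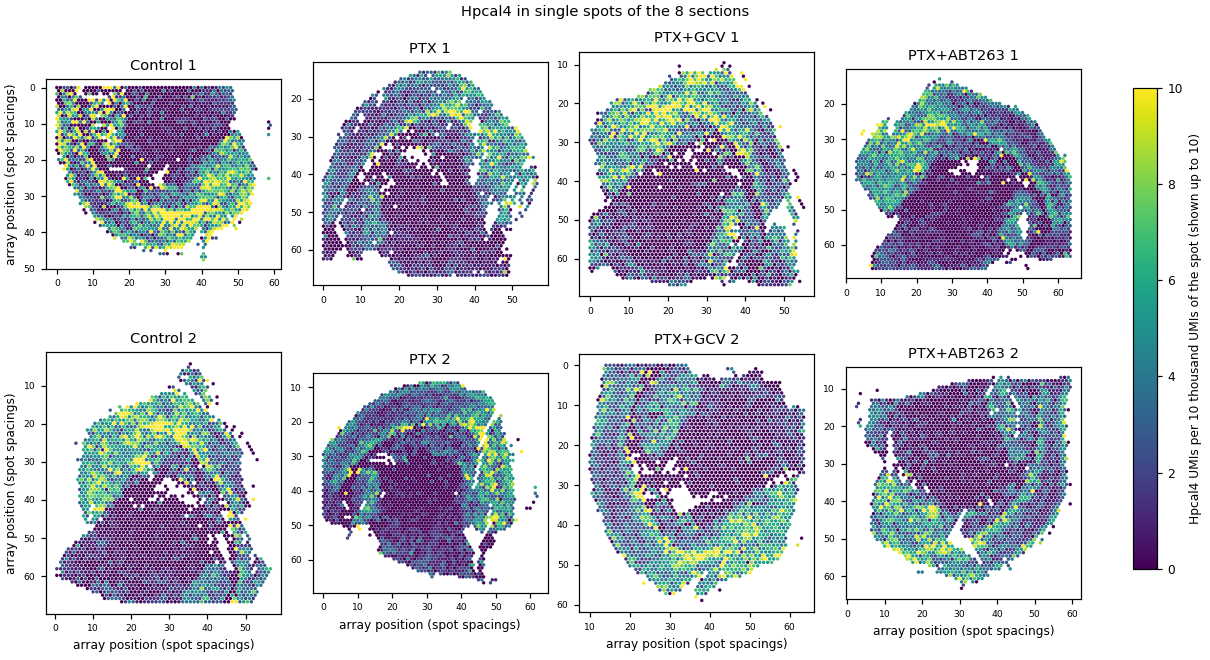
Hpcal4 in single spots of the 8 sections, as UMIs per 10000 UMIs of the spot (colour, shown up to 10), with axes in spot spacings on the array. The sections lie in different orientations, and the thalamus is dark in all 8. The cortex is dimmer in PTX 1 and PTX 2 (isocortex 293 and 308 CPM) than in Control 1 and Control 2 (549 and 491).

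Hpcal1 was lower in PTX than in Control without overlap in 4 of 13 areas, the piriform and amygdalar cortex (233 and 369.7 against 176 and 170.3), the striatum, the hypothalamus (184 and 262 against 158 and 146) and the fiber tracts, and higher in 1, the thalamus, beside 15.6% lower and 25.1% higher over all pairs of a gene and an area. These include the areas where Hpcal1 was most abundant, the piriform and amygdalar cortex and the hypothalamus. In the isocortex as a whole Hpcal1 overlapped, at 34.9 and 71.4 in Control against 41.4 and 35.2 in PTX, with Control 2 the highest and Control 1 the lowest of the 8 sections. Ncald (398 and 471 against 376 and 352) and Cpne6 (114 and 115 against 101 and 95.2) were lower in the isocortex of PTX without overlap, with log2 fold changes of -0.28 and -0.24 that did not pass (edgeR adjusted p = 0.317 and adjusted p = 0.388). Hpca, Vsnl1, Calb1, Calb2 and Nrgn had changes between -0.08 and 0.06 in the isocortex, and all but Vsnl1 overlapped. The median of the 9 members was -0.08 and that of all genes -0.00.

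**Figure D4:**
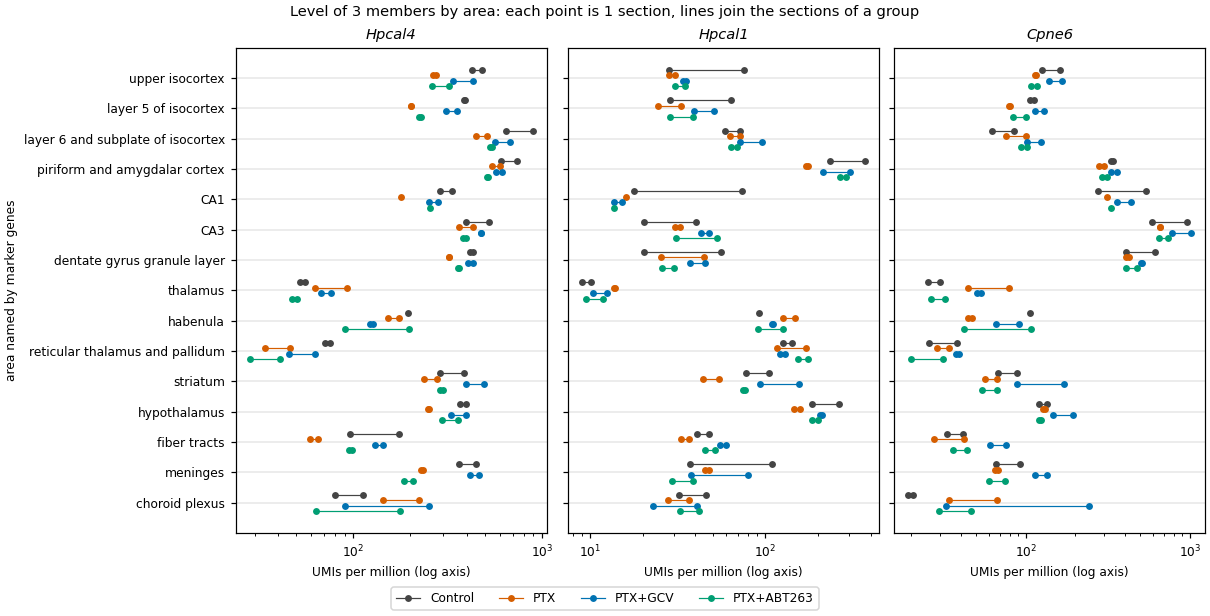
Level of Hpcal4, Hpcal1 and Cpne6 in each of the 15 areas on a log axis of CPM. Each point is 1 section, lines join the 2 sections of a group, and colours are groups. Hpcal4 is lower in both PTX sections than in both Control sections in 10 of 13 areas, and Cpne6 is higher in both PTX+GCV sections than in both PTX sections in 12 of 14.

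In the hippocampal formation 0 of 9 members passed between PTX and Control, where 0.0334% of all genes did (2 members and 3.77% of genes at an unadjusted p under 0.05 in edgeR). Hpcal4 stood at 424 and 377 in Control against 278 and 325 in PTX (log2 fold change -0.37, SE 0.13), without overlap. Hpca, which was highest in these layers, was at 2578 and 1903 in Control against 1905 and 3021 in PTX, so the sections of each group differed more than the groups did. Cpne6 was at 739 and 430.4 in Control against 436 and 475 in PTX, which overlap. These sums include the CA1 spots of PTX 2 and PTX+ABT263 1 that the check gene did not bear out. Without CA1, Hpca was at 2242 and 1856 in Control against 1595 and 2421 in PTX, Hpcal4 at 491 and 404 against 339.6 and 398, and Cpne6 at 836 and 522 against 514 and 586. The proportions of CA1, CA3 and dentate gyrus were not the same in these sections: CA3 supplied 39 to 59 spots per section and CA1 39 to 114.

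In the thalamus 5 members were higher and 1 lower in PTX than in Control, in a comparison in which 6.65% of all genes passed. For Calb2 Control gave 86.5 and 100.1, PTX 217 and 449, PTX+GCV 194 and 211, and the sections labelled PTX+ABT263 gave 100.4 and 85.9. Both PTX sections lay above all others, PTX 2 by far the highest. The log2 fold change of PTX against Control was 1.80 (SE 0.22, edgeR adjusted p = 8.5e-05 over 13048 genes), and 1.19 without PTX 2. Calb1 rose alongside, from 146 and 159 in Control to 261 and 363 in PTX (log2 fold change 1.03, SE 0.13, edgeR adjusted p = 0.000103). Cpne6 stood at 25.4 and 29.9 in Control against 44.4 and 79.3 in PTX (1.09, SE 0.21, edgeR adjusted p = 0.00325), and the change was 0.64 without PTX 2. Ncald (0.56) and Hpcal4 (0.49, from 52.1 and 55.6 to 62.7 and 92.6) were also higher, with edgeR adjusted p = 0.0165 and adjusted p = 0.0497. Without PTX 2 these became 0.29 and 0.20 and no longer passed (edgeR adjusted p = 0.273 and adjusted p = 0.524), nor did they without Control 1 (adjusted p = 0.187 and adjusted p = 0.267), and Hpcal4, just inside the threshold, passed in 4 of 17 alternatives: without PTX 1, with no filter, with the stricter score and with the replicate block. Hpca was lower, at 50.3 and 83.9 in Control against 32.2 and 33.3 in PTX (-1.12, SE 0.21, edgeR adjusted p = 0.00293), and -0.55 without Control 2 (adjusted p = 0.205).

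Many other thalamic genes moved in the same comparison. Prkcd, a marker used to find the thalamus and a gene of its relay nuclei, was at 1863 and 1730 in Control against 1127 and 669.5 in PTX, and Tnnt1 at 242 and 286 against 107 and 114. Gbx2, a thalamic transcription factor, was at 37.9 and 49.7 against 70.0 and 97.4. These 3 genes were chosen after their values were seen. Control held 333 and 438 thalamus spots, PTX 388 and 313, PTX+GCV 466 and 481, and PTX+ABT263 held 444 and 437. The list of 7 oligodendrocyte genes summed to 6443 to 7667 CPM in the thalamus of Control and 5045 to 5565 in PTX, the neuron list to 9484 to 10325 and 8965 to 8989, and the astrocyte list to 2880.1 to 3289 and 2530.4 to 2626. No gene of them was at 0. The part of these lists, and of which thalamic nuclei a section holds, was not tested.

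Much of the thalamic Calb2 lay along the edge of the thalamus. Spots with a neighbour outside the thalamus held 16.4% to 24.3% of its UMIs but 43.8% to 64.5% of its Calb2 UMIs, and the border made up more of the thalamus in PTX (21.0% and 24.3% of UMIs) than in the other sections (16.4% to 17.8%). In the inner spots Calb2 was at 51.1 and 61.2 in Control and 131 and 302 in PTX, and in the border spots at 264 and 298 against 537 and 905. PTX lay above Control in both. Inner levels of Calb1 were 134 and 152 in Control against 250.5 and 358 in PTX, those of Cpne6 19.6 and 24.1 against 40.9 and 72.3, and those of Hpca 47.5 and 78.7 against 29.2 and 30.0.

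**Figure D5:**
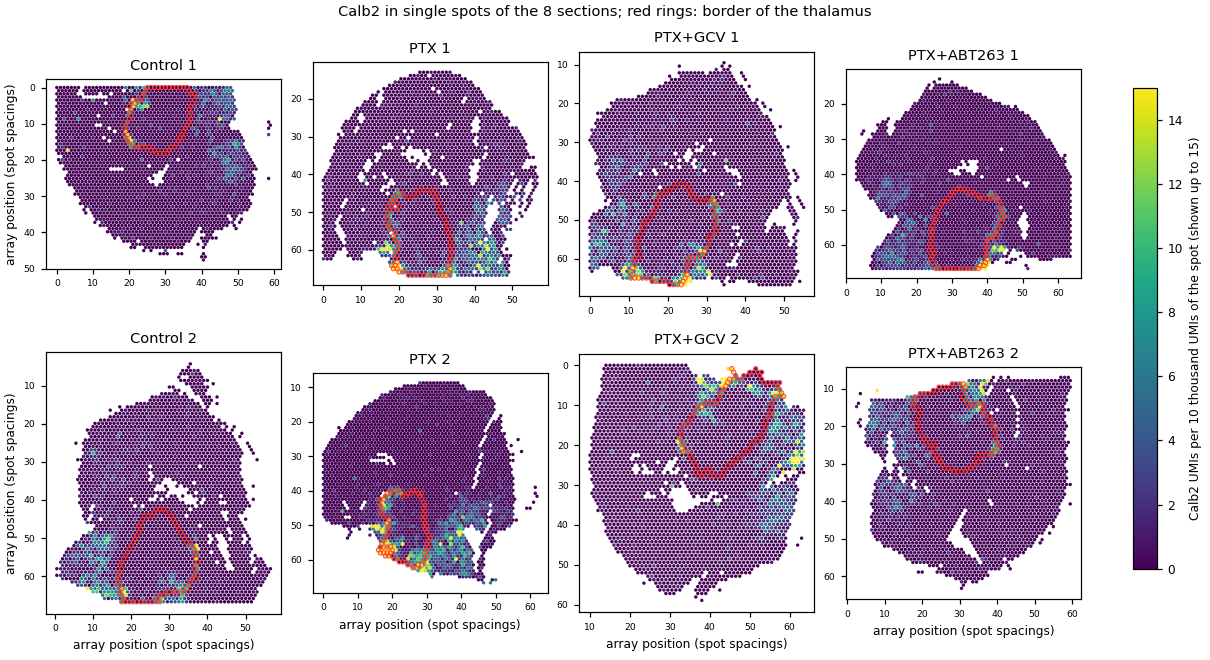
Calb2 in single spots of the 8 sections, as UMIs per 10000 UMIs of the spot (colour, shown up to 15), with axes in spot spacings on the array. Red rings mark the border of the area named thalamus. Bright spots gather at the edge of the thalamus and beside it, where the habenula and hypothalamus lie, and PTX 2 has the highest thalamic level (449 CPM) of the 8 sections.

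Outside the thalamus Calb2 was higher in PTX than in Control without overlap in 5 further areas of 13, beside 25.1% of all pairs of a gene and an area, among them the hypothalamus (223 and 193 against 270.2 and 377) and the dentate gyrus (12.2 and 31.6 against 37.1 and 46.6). It was lower in 1, the striatum (11.8 and 11.5 against 4.05 and 9.99). In the habenula, where it was highest, Control was given by 1 section (473) against 804 and 936 in PTX. In the isocortex it was near its lowest level and overlapped, at 10.7 and 13.1 against 11.9 and 13.7.

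Areas were compared directly through differences of log2 levels within each section. For the isocortex minus the rest of the section, 0 of 9 members and 0% of 15564 genes passed in limma (2 members and 6.62% of genes at an unadjusted p under 0.05). The difference for Hpcal4 was 0.50 and 0.65 in Control against 0.44 and 0.30 in PTX, a change of -0.20 (SE 0.15, limma adjusted p = 0.848), so an unequal change inside and outside the isocortex was not shown. For the hippocampal formation minus the isocortex 0 of 9 and 0% of 13344 genes passed in limma (0 members and 6.25% of genes at an unadjusted p under 0.05). For the thalamus minus the isocortex, a test added after the values were seen, the Hpcal4 difference was -3.46 and -3.13 in Control against -2.23 and -1.74 in PTX, a change of 1.31 (SE 0.24, limma adjusted p = 0.186). That of Cpne6 was 1.34 (SE 0.34, limma adjusted p = 0.211) and that of Calb2 1.66 (SE 0.29, limma adjusted p = 0.185). In this test 7 of 9 members had an unadjusted p under 0.05 in limma, as had 13.8% of all genes, and 0 of 9 and 0% of 14003 genes passed after adjustment.

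The senolytic groups were set against PTX, and all these comparisons share the PTX sections with the one above. Over the whole section Cpne6 was at 188 and 189 in PTX+GCV against 134 and 128 in PTX, above both Control sections (154 and 146). Its log2 fold change of 0.48 (SE 0.06, edgeR adjusted p = 0.0417) was the 1 call among the members where 0.024% of all genes passed. It no longer passed without PTX 1, PTX 2, PTX+GCV 1 or PTX+GCV 2, with changes of 0.45 to 0.51 and edgeR adjusted p of 0.0598, 0.285, 0.186 and 0.0605, or with the section number as a replicate block (adjusted p = 0.0545). Area by area Cpne6 was higher in PTX+GCV than in PTX without overlap in 12 of 14 areas and lower in 0, where 23.6% of all pairs of a gene and an area were higher and 14.2% lower. In the hypothalamus it was at 146 and 193 against 131 and 128, in layer 5 at 129 and 113 against 78.9 and 80.5, and in CA3 at 1020.1 and 779.8 against 659 and 658. Hpcal4 was higher without overlap in 9 areas and lower in 1, the habenula, with a whole-section change of 0.43 (SE 0.09, edgeR adjusted p = 0.113). Hpcal1 was higher in 7 of 14 areas and lower in 2.

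In the isocortex 0 of 9 members passed between PTX+GCV and PTX, where 0.0211% of all genes did (2 members and 6.74% of genes at an unadjusted p under 0.05 in edgeR), and Hpcal4 had a log2 fold change of 0.48 (SE 0.11, edgeR adjusted p = 0.272). In the hippocampal formation 0 of 9 and 0.0334% of all genes passed (0 members and 5.64% of genes at an unadjusted p under 0.05 in edgeR). In the thalamus 0 of 9 and 0.521% of all genes passed (4 members and 11.2% of genes at an unadjusted p under 0.05 in edgeR), with Hpca at 71.8 and 51.4 against 32.2 and 33.3 (0.88, SE 0.21, edgeR adjusted p = 0.0661).

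Between the sections labelled PTX+ABT263 and PTX, 0 of 9 members passed over the whole section, where 0.138% of all genes did. At an unadjusted p under 0.05 in edgeR there were 4 members and 11.8% of all genes. Calb2, at 64.9 and 63.6 against 97.1 and 132, came nearest (-0.72, SE 0.12, edgeR adjusted p = 0.0509), with -0.47 without PTX 2. In the isocortex 0 of 9 and 0.162% of all genes passed (3 members and 9.81% of genes at an unadjusted p under 0.05 in edgeR), with Hpcal4 at 329 and 360.0 against 293 and 308. In the hippocampal formation 0 of 9 and 0.109% of all genes passed (0 members and 3.43% of genes at an unadjusted p under 0.05 in edgeR). In the thalamus 7 members passed, where 4.49% of all genes did. Calb2 (-1.75, SE 0.21, edgeR adjusted p = 0.000114), Calb1 (-0.69), Cpne6 (-0.96), Hpcal4 (-0.58) and Ncald (-0.50) were lower and Hpca (0.98) and Nrgn (0.95) higher. For Nrgn the values were 96.6 and 216 against 83.7 and 84.7, and without PTX+ABT263 2 the change was 0.28 (edgeR adjusted p = 0.705). Without PTX 2 or without PTX+ABT263 2, 2 or 1 of the 7 members passed in edgeR, and without either of them Calb2 did (changes of -1.14 and -1.64). The oligodendrocyte list summed to 6305 to 7628 there against 5045 to 5565 in PTX, and its part was not tested.

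Area by area, Vsnl1, Ncald and Calb2 were each lower without overlap in 7 of 14 areas in the sections labelled PTX+ABT263 than in PTX, where 33.4% of all pairs of a gene and an area were lower and 9.77% higher. Without TMM scaling the median of all genes moved by -0.11 in the whole section and by -0.13 in the isocortex in this comparison, and the CPM values carry that shift. Hpcal4 was higher in 6 areas and lower in 3.

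Other genes of calcium handling were taken from 6 lists with 112 genes, which include Pvalb, also a marker used for the reticular thalamus and pallidum. Over the whole section 2 of 112 passed between PTX and Control, both higher: Pvalb, the buffer of fast-spiking interneurons, at 219 and 202 in Control against 292 and 327 in PTX (0.51, SE 0.08, edgeR adjusted p = 0.0431), and Kcnip1, a potassium channel subunit of the sensor family, at 33.1 and 26.5 against 42.8 and 46.4 (0.54, SE 0.09, edgeR adjusted p = 0.0480). Pvalb was lower in PTX+GCV, at 177 and 207 (-0.73 against PTX, SE 0.08, edgeR adjusted p = 0.0242), the 1 of 112 that passed there. In the sections labelled PTX+ABT263, 0 of 112 passed. The reticular thalamus and pallidum held 66 and 71 spots in Control, 94 and 100 in PTX and 49 and 58 in PTX+GCV. In the sections labelled PTX+ABT263 it held 70 and 61. The part of this area in the Pvalb changes was not tested. In the isocortex 0 of 107 tested and in the hippocampal formation 0 of 108 tested passed in any of the 3 comparisons. Median log2 changes of the 112 genes were between -0.05 and 0.05 over the whole section, beside -0.00 to 0.01 for all genes.

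In the thalamus 29 of 106 tested list genes passed between PTX and Control, 11 higher and 18 lower, beside 6.65% of all genes. Of 27 calmodulin-binding proteins and targets 5 were higher and 7 lower, and of 34 tested genes of calcium entry, stores and extrusion 1 was higher and 6 lower. Necab1, an EF-hand protein, was at 140.3 and 119 in Control against 291 and 351 in PTX (1.33, SE 0.11, edgeR adjusted p = 3.77e-06). Gap43, a calmodulin-binding protein of growing axons, changed by 0.84 and Kcnip1 by 1.68, whereas Pcp4l1 changed by -0.87, Slc24a2, a sodium-calcium exchanger, by -0.82 and Camkk1, a calmodulin-dependent kinase, by -0.59. Against PTX, 2 of 106 passed in PTX+GCV, both higher (Pcp4l1 0.56 and Necab2 0.45), beside 0.521% of all genes. In the sections labelled PTX+ABT263, where 4.49% of all genes passed, 13 were higher, among them Ppp3ca (0.69), Kcnip3 (0.63) and S100a1 (0.43), and 8 lower, among them Necab1 (-0.85), Gap43 (-0.67) and Kcnip1 (-1.18).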

How the data were processed

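Per the labels and file headers, the authors aligned the Visium reads and counted UMIs with Space Ranger (1.2.1) on the genome mm10, and deposited raw UMI counts for every spot together with its array position, without normalisation. Seurat 4.0, named in the submitters' notes, made none of the values used.

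Spots were kept if they held at least 200 genes and at most 30% mitochondrial UMIs, which removed 35 to 137 per section. Marker counts per 10000 UMIs were log-transformed, scaled and averaged over a spot and its 6 neighbours, and a spot took the area with the highest score above 0.5. Planned as an alternative, this averaging became the reported setting once maps of the areas had been seen. The values left out by check genes, the thalamus minus isocortex test, the common mix of areas the hippocampal formation without CA1 and the split of the thalamus into inner and border spots were also added after the data were seen. Counts were summed per section and area and tested with edgeR 4.0.16 (R 4.3.3, TMM factors, filterByExpr, quasi-likelihood F-test, all 8 sections in 1 fit), and p was adjusted by Benjamini-Hochberg over all genes tested. All 9 members passed the filter on low counts in the whole section, isocortex, hippocampal formation and thalamus. Differences between areas used limma 3.58.1 (prior count 2), and orders of areas exact sign flips of log2(CPM + 1) with scipy 1.17.1 in Python 3.11.15. A change called here has an adjusted p under 0.05. The steps were tested on simulated data.

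The members and the gene lists were chosen with earlier results of these data known. Named genes are all 9 members, the genes most correlated with each (the first of 3 is given), and up to 3 genes per direction with the smallest p from the 6 lists where they passed. Alternatives were total counts, no filter, DESeq2 1.42.0, only the 2 groups compared, no PTX+ABT263 group, all spots, a stricter least score of 1, single-spot scores, prior count 0.5, pseudocount 0.1, TMM-scaled levels, a replicate block and leaving out each section. Deviations of sections with the same number correlated at -0.115 to 0.0662 across groups, so the numbers were not taken as pairs and no block entered the fit. Sections held 19870666 to 42886400 UMIs, and the 2 sections per group limit the precision.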

Additional observations from a re-analysis of the deposited data

Results flagged for a closer look

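For 4 pairs of areas a member was lower in both PTX sections than in both Control sections in one area and higher in both in the other. Hpcal4 changed by -0.80 on the log2 scale in the isocortex and by 0.49 in the thalamus, a gap of 1.30. Between the hippocampal formation (-0.37) and the thalamus the gap of Hpcal4 was 0.86. Ncald changed by -0.28 in the isocortex and by 0.56 in the thalamus, a gap of 0.84, and Cpne6 by -0.24 and 1.09, a gap of 1.32. These pairs are listed because the sections lay in opposite directions, and the gap between the hippocampal formation and the thalamus was not tested. The share of all genes that meet this rule was not computed, so the 4 pairs are no result about the members. Over all pairs of a gene and an area, 15.6% were lower and 25.1% higher in PTX without overlap. Without PTX 2 the thalamic changes of Hpcal4, Ncald and Cpne6 were 0.20, 0.29 and 0.64. For the thalamus minus the isocortex, limma on differences within sections gave adjusted p = 0.186 for Hpcal4, adjusted p = 0.213 for Ncald and adjusted p = 0.211 for Cpne6, and 0 of 14003 genes passed (1932 at an unadjusted p under 0.05).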

How the results depend on the processing

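No group difference followed across the alternatives changed direction. Of 354 values of single members under an alternative, 272 stayed on their side of an adjusted p of 0.05, 33 newly passed and 49 no longer did. Hpcal4 in the isocortex ranged from -0.88 to -0.74 and passed in 15 of 17 alternatives, all but those without PTX 1 or without PTX 2. Hpcal4 in the whole section passed in 12 of 15, and did not with the replicate block (adjusted p = 0.0646), without PTX 1 (0.136) or without PTX 2 (0.169).

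Counts of members that passed depended on the settings, and so did counts of all genes (ranges below). Shares of all genes under each single setting are not given here, so these counts are no result about the members. Over the whole section 1 passed between PTX and Control, against 3 with total counts, 4 with no filter, 0 with the replicate block, 4 with DESeq2, 2 with only the groups compared and 0 to 2 without 1 section. For PTX+GCV against PTX 1 passed, against 2 with total counts, 3 with no filter, 0 with the block, 2 with DESeq2 and 0 to 2 without 1 section. For PTX+ABT263 against PTX 0 passed, against 1 with total counts, 3 with no filter, 1 with the block, 1 with DESeq2, 2 with only the groups compared and 0 to 2 without 1 section. In the isocortex 2 passed between PTX and Control with no filter and 0 to 2 without 1 section (2 without Control 1, 0 without PTX 1 or PTX 2), 2 between PTX+GCV and PTX with no filter and 1 between PTX+ABT263 and PTX with no filter. In the thalamus PTX+GCV against PTX gave 1 with total counts, 5 with no filter, 1 with only the groups compared and 0 to 4 without 1 section, PTX+ABT263 against PTX 3 with DESeq2 and 1 to 7 without 1 section, and PTX against Control 4 to 6 without 1 section. Hpcal4 in the thalamus also lost its call with total counts, all spots, single-spot scores, DESeq2, only the groups compared and no PTX+ABT263 group (adjusted p 0.0536 to 0.124). Without PTX 2 the thalamic change of Calb2 was the lowest, 1.19, and without PTX 1 the highest, 2.24. In the order of areas 20 of 126 neighbouring pairs passed with the stricter score, 25 with single-spot scores and 20 with all 120 area values. Of the 126 steps 90 kept their direction with single-spot scores, 99 with the stricter score, 108 with TMM factors, 114 without the PTX+ABT263 sections, 118 with all area values, 121 with all spots, 124 with pseudocount 0.1 and 107 to 119 without 1 section. The smallest p that sign flips can give rises when a section or an area value is left out, which limits how many steps can pass. The cause of the other shifts was not tested. A group left with 1 section borrows its spread from the rest. The replicate block pairs sections that share only a number. Genes called in all ranged over the alternatives from 0 to 874 (21 reported) between PTX and Control in the whole section and from 0 to 339 (4 reported) in the isocortex. In the thalamus they ranged from 354 to 1193 (868 reported). For PTX+GCV against PTX the ranges were 0 to 547 (4 reported), 1 to 96 (3) and 13 to 323 (68) in these 3 areas. For PTX+ABT263 against PTX they were 12 to 712 (23 reported), 7 to 275 (23) and 104 to 965 (586).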
